A study of Mus musculus with 19 samples.

Results

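Wild-type mice were injected repeatedly with lipopolysaccharide (LPS) or with saline, and gene expression in their medial prefrontal cortex was compared. The comparison uses 9 of the 19 libraries of the study, taken by their group labels: 5 LPS libraries (replicates 1 to 5) and 4 control libraries (replicates 1, 2, 4 and 5). A control replicate 3 was not analysed here. Control mice were gavaged with saline over 8 days and injected intraperitoneally with saline over 5 days. LPS mice were also gavaged with saline for 8 days, of which 3 preceded the first injection, and received LPS at 1 mg/kg intraperitoneally on 5 consecutive days. Neither group received sedanolide, a phthalide of celery given to the remaining 10 libraries' mice at 20 mg/kg, alone (n = 5) or together with LPS (n = 5). Those 10 libraries entered the model to estimate the spread between replicates. With the other 9 they also set which genes were tested and how library totals were scaled. They are described for themselves at the end. Strain, sex, age and the interval between the last injection and tissue collection are not given in the sources used here. Whether each replicate is another animal is not stated in the labels. The p-values therefore reflect the spread between libraries of a group, which may be technical. In bulk tissue fewer cells of a type and less RNA per cell cannot be told apart, nor can more cells and more RNA per cell.

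LPS is the lipid-anchored glycan of the outer membrane of Gram-negative bacteria. It is carried by LPS-binding protein and CD14 to the receptor complex of TLR4 and MD-2, which signals through the adaptors MyD88 and TRIF to NF-kB and to interferon regulatory factors. In the brain the receptor is found mainly on microglia, on macrophages of the borders and on endothelium. After injection into the periphery, signals reach the tissue through the vessel wall and circulating cytokines, and repeated doses are widely used to model the depressive-like behaviour that accompanies inflammation. Feedback inhibitors of the receptor pathway are induced along with its inflammatory targets.

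Each library was made from poly(A) RNA and gives a read count per gene. Library totals ranged from 20684385 to 24318856 counts in controls and from 19083707 to 23997236 after LPS. Mitochondrially encoded genes took 7.147 to 11.69% of counts in controls and 7.29 to 11.52% after LPS, and 24295 to 25620 and 24393 to 25559 genes had at least 1 count. Levels are given as CPM, counts scaled to the library total after scaling by a trimmed-mean library factor. Genes of cortical excitatory neurons were abundant in every library, with Slc17a7, the vesicular glutamate transporter of cortex, at 797 to 1473 CPM in controls and 1004 to 1569 CPM after LPS. The libraries differed in how much olfactory bulb, the region in front of the prefrontal cortex, they held. Cdhr1, a cadherin of bulb projection neurons, stood at 444, 5.00, 5.84 and 213 CPM in control replicates 1, 2, 4 and 5, and at 9.91, 181, 57.6, 175 and 6.16 CPM in LPS replicates 1 to 5. Both groups therefore held bulb-rich libraries (Cdhr1 of 20 CPM or more; 2 control and 3 LPS) and bulb-poor libraries (2 of each). The mean log2 level of Cdhr1 after LPS minus that in controls was -0.029, a difference that an exact permutation test over the libraries did not separate from 0 (two-sided p = 0.921). Leaving out 1 library moved this difference between -1.01 (without control replicate 2) and 1.10 (without control replicate 1), with exact permutation p from 0.536 to 0.914.

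Of 17757 genes with enough counts to test, 1938 (10.9%) were called at an adjusted p below 0.05, 1504 of them higher after LPS (8.47%) and 434 lower (2.44%). The higher calls were the larger ones: their median log2 change was 0.92, against -0.43 among the lower calls and -0.0034 over all genes tested. A change of more than 2-fold was found for 678 genes called higher (3.82%) and 28 called lower (0.158%), and one of more than 4-fold for 167 and 2. Among the called genes, all 5 LPS libraries lay above all 4 controls for 1211, and below them for 247. Over all genes tested, the groups did not overlap with LPS higher in 7.92% and with LPS lower in 2.8%. Calls of higher expression made up 8.74% of genes under 2 log2 CPM, 10.6% of those from 2 to 5 and 5.97% of those at or over 5, and calls of lower expression 0.994%, 3.44% and 2.68%. The 1504 included 1451 protein-coding genes and 38 long noncoding RNAs, and the 434 included 376 and 39, where 14878 and 1825 were tested. The median GC content of the longest transcript was 52.5% for genes called higher, 44.6% for genes called lower and 49.6% over all genes tested. When the model took transcript length and GC into account, 1483 genes were called higher and 362 lower, and with DESeq2 1631 and 738. The lower calls rested more on single libraries. Their number was 200 without control replicate 5, 235 without LPS replicate 1, 251 without LPS replicate 3, 260 without control replicate 4 and 662 without control replicate 2, while the number of higher calls ranged from 1108 to 1816 over the 9 fits that left out a library. Of the 1504 and 434 genes, 1046 and 145 were called in all 9 of these fits.

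**Figure D1:**
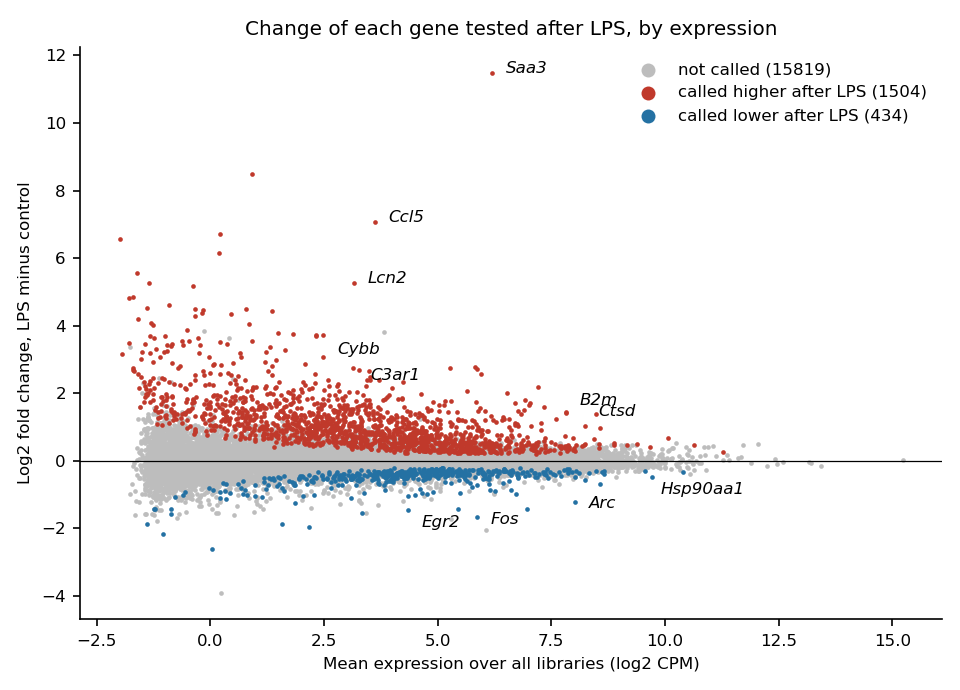
Log2 fold change of each of the 17757 genes tested (LPS minus control, vertical axis) against mean expression over all libraries (log2 CPM, horizontal axis). Grey points were not called, the 1504 red points were called higher and the 434 blue points lower at an adjusted p below 0.05; the higher calls reach much larger changes than the lower calls.

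Receptors and adaptors that detect LPS and other microbial products were called higher as a group. Of 25 genes of this list tested, 18 were higher and none lower, with a median log2 change of 1.09. Cd14, the co-receptor that hands LPS to the receptor complex, stood at 2.95, 4.22, 2.26 and 3.09 CPM in controls and 14.2, 14.0, 12.1, 10.6 and 13.5 CPM after LPS. Every LPS library was above every control, and the change was 2.04 (SE 0.14, adjusted p = 1.72e-08). Aoah, the lipase that removes acyl chains from LPS and so inactivates it, stood at 0.480, 0.741, 0.0982 and 0.334 CPM in controls and 5.45, 4.77, 6.90, 4.03 and 8.03 CPM after LPS. The groups did not overlap and its change, 3.79 (SE 0.33, adjusted p = 1.65e-07), was the largest of the list. Among the other Toll-like receptors, Tlr2, which detects bacterial lipoproteins, rose by 2.10, SE 0.24, and Tlr7 and Tlr9, endosomal receptors of nucleic acids, by 1.60 and 1.93. Tlr13, a receptor of bacterial ribosomal RNA, rose by 1.95, and Casp4, which encodes the mouse caspase-11 that binds LPS inside the cell, by 1.75. Tlr4, the LPS receptor itself, rose by 0.98 (SE 0.27, adjusted p = 0.0221), a call lost without LPS replicate 2 (0.0528), control replicate 4 (0.0729) and control replicate 5 (0.0703). Downstream, the adaptor gene Myd88 rose by 0.54 and Ticam2, an adaptor of the TRIF branch, by 1.90. The kinase gene Irak1 (0.20) and the ubiquitin ligase gene Traf6 (-0.089) were not called, and neither were Lbp (1.01) and Ly96, which encodes MD-2 (0.56).

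Within the NF-kB pathway 12 of 22 genes were higher and none lower. Called subunits were Nfkb2 (1.38, SE 0.17), Relb (0.87) and Nfkb1 (0.77), whereas Rela (0.43) and Rel (-0.20) were not called. Feedback genes split. Irak3, which encodes the inactive kinase that restrains Toll-like receptor signalling, stood at 1.37, 1.02, 1.03 and 0.751 CPM in controls and 2.16, 3.05, 2.63, 2.37 and 3.32 CPM after LPS, without overlap, and rose by 1.37, SE 0.22. Zc3h12a, encoding the nuclease Regnase-1 that degrades cytokine transcripts, rose by 1.74, SE 0.25, and Bcl3, encoding a nuclear partner of NF-kB subunits, by 1.49, SE 0.26. Nfkbia, which encodes the inhibitor IkB-alpha and is induced within minutes of NF-kB activation, stood at 21.7 to 41.6 CPM in controls and 24.6 to 31.3 CPM after LPS and was not called (-0.19, SE 0.13). The deubiquitinase gene Tnfaip3 (0.44) and the mRNA-decay gene Zfp36 (0.11) were not called either. In the bulb-rich libraries alone (3 LPS, 2 control) 4 members of this list were called.

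Transcripts of the classical first-wave cytokines were scarce. Tnf had 0.0463 to 0.147 CPM in controls and 0 to 0.344 CPM after LPS, Il6 0 to 0.0369 CPM and 0 to 0.0939 CPM, and Il10 0 to 0.0369 CPM and 0 to 0.0470 CPM, and all were below the expression filter. Their groups overlapped. In contrast, 14 of the 23 cytokine and inflammasome genes tested were higher and none lower. Il1b rose by 2.84, SE 0.38, from 0.0463 to 0.459 CPM to 1.44 to 2.67 CPM, and Il1rn, which encodes the natural antagonist of its receptor, by 2.75, SE 0.52, although it remained under 1 CPM in all 9 libraries. Osm, a cytokine of the IL-6 family, rose by 2.28. Receptors rose too, among them Tnfrsf1b (1.79, SE 0.16), Il1r1 (1.37), Tgfbr2 (1.20) and Il10ra (1.29). Gsdmd, encoding the pore-forming target of inflammatory caspases, rose by 1.44 and the adaptor gene Pycard by 1.41, whereas Casp1 (0.26) and Il18 (-0.13) were not called. Of 26 listed chemokine genes 10 were below the filter, Ccl2 and Ccl3 among them, and 7 of the 16 tested were called, all higher. Besides Ccl5, which attracts T cells and monocytes (7.07, SE 0.49), they included Cxcl16 (1.70), Ccl6 (1.28) and Ccl9 (0.98). Cxcl10, the interferon-induced ligand of CXCR3, stood at 0.0491 to 1.22 CPM in controls and 0.696 to 2.88 CPM after LPS and was not called (1.37, SE 0.63, adjusted p = 0.19).

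The acute-phase genes, which liver, endothelium and glia transcribe in response to cytokines of the IL-6 family through STAT3, included some of the largest changes. Saa3, a serum amyloid made outside the liver, stood at 0.0738, 0, 0.0982 and 0 CPM in controls and 125, 113, 144, 106 and 206 CPM after LPS. In controls this amounted to 4 reads in all, and after LPS to 14754. Lcn2, encoding the iron-scavenger lipocalin 2, stood at 0.369, 0.834, 0.834 and 0.668 CPM in controls and 12.9, 49.7, 23.8, 23.2 and 19.2 CPM after LPS. For neither gene did the groups overlap, and LPS replicate 2 held the highest Lcn2 level. The log2 changes were 11.48, SE 0.37, for Saa3 and 5.27, SE 0.40, for Lcn2. These SE are derived from the test statistic and do not give the counting error of the few control reads. Of 19 genes of the STAT3 and acute-phase list tested, 14 were higher and none lower. They included Hp, encoding haptoglobin (2.52), Lrg1, encoding a leucine-rich glycoprotein of the vessel wall (2.23), Socs3, the feedback inhibitor of STAT3 (1.11, SE 0.19), and the receptor genes Osmr (1.00) and Il6ra (1.58). Pim3 (-0.32) and Il6st, the shared receptor chain (0.31), were not called. In the bulb-poor and the bulb-rich libraries alone 9 members each were called. C3, the central complement protein, stood at 0.923, 0.417, 1.62 and 0.709 CPM in controls and 10.4, 16.0, 12.2, 10.2 and 11.7 CPM after LPS, without overlap.

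The promoters of the 3 genes are printed because these genes carry the largest changes of the acute-phase and complement lists and share a sequence in the 250 bases before their start. The sequences are RefSeq's, build GRCm38.p6, read on the gene's strand from Saa3 (chr7:46715677-46715926, minus strand), Lcn2 (chr2:32387740-32387989, minus strand) and C3 (chr17:57228137-57228386, minus strand). Capitals mark a match on either strand to TTGCNNAA, letters bound by C/EBP factors, which act with STAT3 and NF-kB on acute-phase genes.
Saa3: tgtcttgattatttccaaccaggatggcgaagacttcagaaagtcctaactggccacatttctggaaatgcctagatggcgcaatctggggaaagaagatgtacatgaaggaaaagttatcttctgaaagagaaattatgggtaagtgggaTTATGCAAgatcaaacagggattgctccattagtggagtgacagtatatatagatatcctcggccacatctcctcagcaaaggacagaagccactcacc
Lcn2: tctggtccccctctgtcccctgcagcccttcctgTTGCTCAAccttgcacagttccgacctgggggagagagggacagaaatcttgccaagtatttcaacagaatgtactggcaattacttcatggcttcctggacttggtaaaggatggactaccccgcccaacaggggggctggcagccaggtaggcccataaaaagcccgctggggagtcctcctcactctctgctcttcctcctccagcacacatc
C3: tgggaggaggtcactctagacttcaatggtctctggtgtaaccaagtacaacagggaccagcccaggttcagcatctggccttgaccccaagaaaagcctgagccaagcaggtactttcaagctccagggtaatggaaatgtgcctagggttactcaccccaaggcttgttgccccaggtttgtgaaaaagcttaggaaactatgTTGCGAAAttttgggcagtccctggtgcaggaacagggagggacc
The match begins 99 bases before the start in Saa3, where it lies on the opposite strand, 216 bases before it in Lcn2 and 45 bases before it in C3. These promoters were picked after their matches were seen. The letters occur in 9.56% of all 32851 RefSeq promoters of this length, in 7.8% of those of genes tested, in 9.81% of those of genes called higher and in 8.25% of those of genes called lower. A match is a description of letters, not a bound site. Of the C/EBP genes themselves, Cebpa rose by 1.11, SE 0.15, while Cebpb (0.38) and Cebpd (-0.066) were not called.

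Of all lists, that of phagocyte signalling genes had the highest share of members called. Fc receptors bind the constant part of antibodies and signal through adaptors that carry an immunoreceptor tyrosine-based activation motif (ITAM). Of 26 genes of this pathway 25 were higher, with a median change of 1.56, and the only one not called was Hcst (1.18). Fcgr4, an activating receptor, stood at 0.406, 0.232, 0.0982 and 0.292 CPM in controls and 4.18, 8.30, 6.62, 5.09 and 4.98 CPM after LPS. Fcgr3, its more abundant relative, stood at 15.6, 21.9, 14.1 and 18.0 CPM and 62.5, 55.8, 55.5, 51.6 and 70.0 CPM. Neither gene overlapped between groups, and the changes were 4.43 (SE 0.33, adjusted p = 2.78e-08) for Fcgr4 and 1.76 (SE 0.13, adjusted p = 3.94e-08) for Fcgr3. The inhibitory receptor gene Fcgr2b also rose (1.84), as did the ITAM adaptor genes Fcer1g (1.46) and Tyrobp (1.39). Kinases followed, with Fgr at 4.36, Syk at 1.68 and Btk at 1.47, and so did the phosphatase gene Ptpn6 (1.94), which opposes them. Summed over the list, levels ran from 124 to 187 CPM in controls and 403 to 463 CPM after LPS.

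The NADPH oxidase of phagocytes makes superoxide and consists of a membrane core and cytosolic subunits. All of its dedicated parts that were tested were higher. Cybb, the catalytic subunit, stood at 2.47, 1.48, 0.834 and 1.5 CPM in controls and 7.51, 13.4, 16.6, 13.3 and 16.3 CPM after LPS, with LPS replicate 1 the lowest of its group yet above every control. It rose by 3.07 (SE 0.29, adjusted p = 4.6e-07), Cyba, its membrane partner, by 1.24, and the cytosolic subunit genes Ncf1 and Ncf4 by 1.87 and 1.67. Rac2, the GTPase of blood cells that activates the complex, rose by 2.66, whereas its ubiquitous relative Rac1 (-0.0078) was not called. Nos2, encoding the inducible nitric oxide synthase of activated macrophages, stood at 0.709 to 1.48 CPM in controls and 0.910 to 1.76 CPM after LPS and was not called (0.38, SE 0.28).

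Lysosomal genes rose by less but almost as widely, with 20 of 26 higher, none lower and a median of 0.62. Ctsd, an aspartic protease and one of the most abundant genes called, stood at 182, 204, 181 and 191 CPM in controls and 423, 349, 382, 348 and 420.1 CPM after LPS. The groups did not overlap and the change was 1.02 (SE 0.083, adjusted p = 7.38e-08). Ctss, the cathepsin of antigen-presenting cells, rose by 1.59, SE 0.15, Grn, encoding progranulin, by 1.37, and Slc11a1, encoding the phagosomal metal transporter, by 2.22. Among the transcription factors of the lineage, Spi1, which encodes PU.1, stood at 5.09, 7.18, 5.74 and 5.26 CPM in controls and 17.3, 20.3, 19.8, 16.1 and 19.5 CPM after LPS, without overlap. It rose by 1.68, SE 0.13, Irf8 by 1.96, SE 0.12, Runx1 by 1.58 and Ikzf1 by 1.42, among 11 of 23 such genes called higher. Mef2c (-0.29) and Sall1, the factor of microglial identity (0.0015), were not called.

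**Figure D2:**
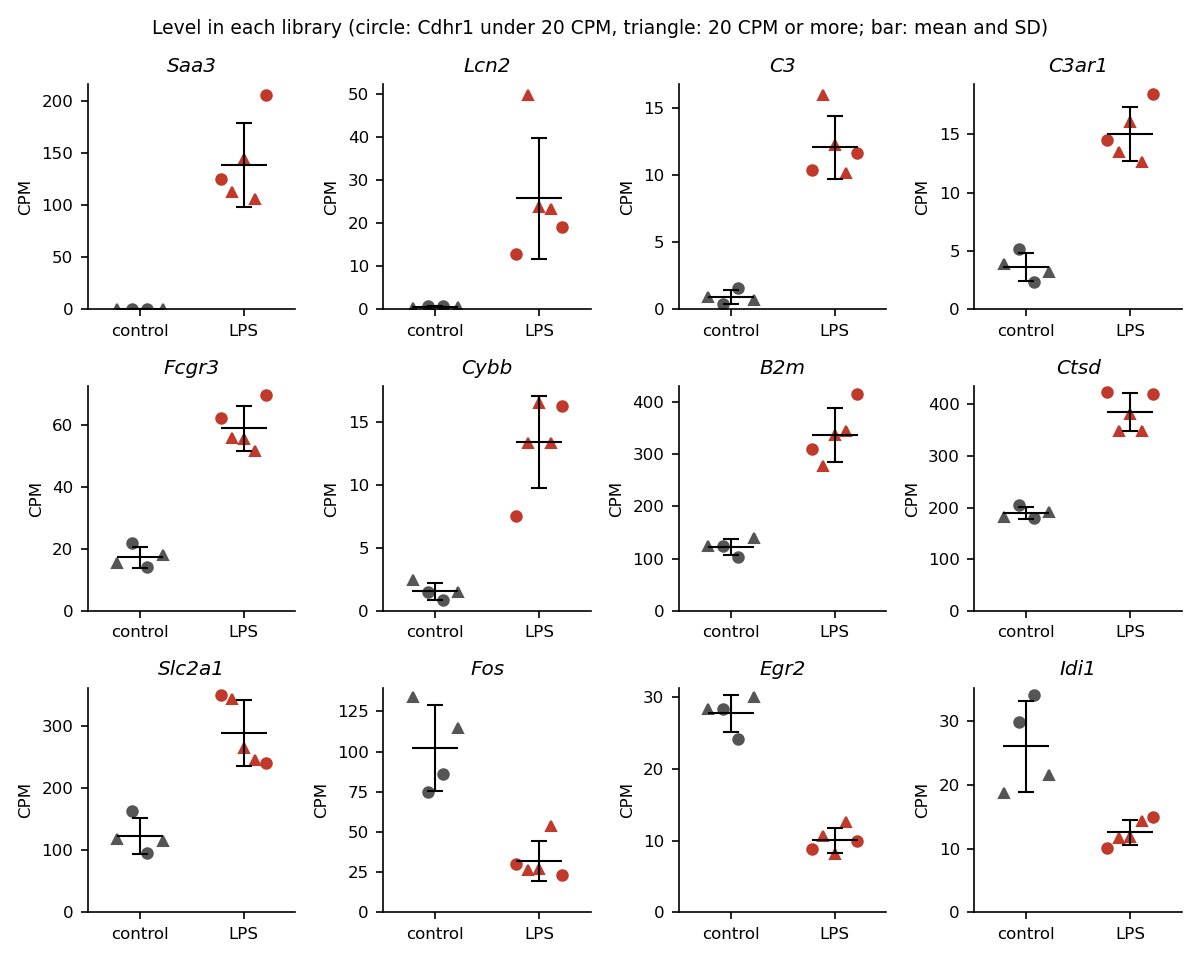
Level of 12 genes in each library (CPM, vertical axis from 0), controls in grey and LPS in red, with circles for bulb-poor and triangles for bulb-rich libraries and bars for mean and SD. For each gene the 5 LPS libraries lie wholly above the 4 controls, or wholly below them for Fos, Egr2 and Idi1, with both bulb-poor and bulb-rich libraries in each group.

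Genes of microglia served as a check on which myeloid genes moved. Of 20 genes of a microglial list 15 were higher and none lower, with summed levels of 812 to 1117 CPM in controls and 1690.1 to 2024 CPM after LPS. The list holds markers of resting microglia together with Trem2, Tyrobp, Itgam and Aif1. Sparc, also counted with the matrix genes, is its most abundant member, at a mean of 288 CPM in controls and 567 CPM after LPS. Csf1r, the growth factor receptor on which microglia depend, stood at 104 to 162 CPM in controls and 265 to 354 CPM after LPS. The purinergic receptor gene P2ry12 stood at 37.7 to 68.4 CPM and 48.2 to 101 CPM and was not called (0.37, SE 0.19), nor were Siglech (0.25) and Gpr34 (0.61). In the list of activated microglial genes 17 of 26 were higher and none lower, with a median of 0.79. Of those that earlier work groups under disease-associated microglia, Cst7 (1.80), Lgals3 (2.26) and Itgax (3.23) were among the genes that rose. Spp1 (-0.43), Gpnmb (-0.28), Lpl (-0.24) and Igf1 (-0.52) did not pass the test. Trem2, a lipid receptor that signals through Tyrobp, rose by 1.48, SE 0.15.

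Antigen presentation split by class. Class I molecules present peptides from inside the cell, and 16 of 19 genes of the class I pathway were higher, with a median of 1.19. B2m, the shared light chain, stood at 125, 125, 103 and 139 CPM in controls and 310.1, 277, 336, 345 and 415 CPM after LPS. There was no overlap and the change was 1.45 (SE 0.15, adjusted p = 1.02e-06). The heavy-chain genes H2-K1 and H2-D1 rose by 2.01, SE 0.15 and 2.18, SE 0.18, the peptide transporter gene Tap1 by 1.61, the immunoproteasome subunit genes Psmb8 and Psmb9 by 1.19 and 1.34, and Nlrc5, the transactivator of class I genes, by 1.40. Heavy-chain genes have near-identical copies, so reads may be split between them. Class II molecules present engulfed material to helper T cells, and their chains were not called. H2-Ab1 stood at 9.34, 3.43, 1.47 and 4.51 CPM in controls and 2.86, 7.27, 3.62, 6.25 and 4.18 CPM after LPS, with full overlap (0.034, SE 0.34). H2-Aa (0.047), H2-Eb1 (-0.076), the invariant chain gene Cd74 (0.17) and Ciita, the class II transactivator (0.31), were not called either. The 4 calls of this list of 13, all higher, were the co-stimulatory genes Cd86 (1.56, SE 0.20) and Cd80 (1.19) and the peptide-loading genes H2-DMb1 (1.29) and H2-Ob (1.26). There were 2 calls in bulb-poor and 1 in bulb-rich libraries alone.

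Interferon-stimulated genes moved in part, with 13 of 39 higher and none lower. Irf7, the master regulator of type I interferon, rose by 1.44, SE 0.22, Zbp1, a sensor of nucleic acids, by 1.88, and the membrane restriction factor genes Ifitm3 and Bst2 by 0.98 and 0.85. The classical targets of the interferon-activated complex were not called: Ifit1 (0.12, SE 0.27), Isg15 (0.050), Rsad2 (0.037) and Stat2 (0.19). Ifit1 stood at 8.97, 3.75, 2.55 and 6.17 CPM in controls and 4.32, 7.27, 6.25, 5.79 and 5.73 CPM after LPS, and its highest level was that of control replicate 1. Without that library 20 members were called. In the bulb-rich libraries alone there were 5, and with the bulb markers as a covariate 20.

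Many transcripts of blood leukocytes were called higher. Neutrophil genes, 13 of 14 tested, summed to 10.8, 11.9, 16.2 and 10.1 CPM in the 4 controls and to 94.8, 132, 99, 102 and 94.5 CPM in the 5 LPS libraries, without overlap. Lcn2, which other cells make too, is part of that sum. S100a8, which encodes a subunit of the neutrophil protein calprotectin, stood at 0.849, 0.463, 1.91 and 0.876 CPM in controls and 12.6, 12, 10.7, 15.3 and 15.9 CPM after LPS. It rose by 3.71, SE 0.44. Ly6g, Mpo and Elane, which define mature and immature neutrophils, were below the filter, with 0 to 0.129 CPM, 0.164 to 0.817 CPM and 0 to 0.215 CPM after LPS. The secondary-granule gene Ltf rose by 3.44, SE 0.48, and the chemokine receptor gene Cxcr2 by 4.48, SE 0.53. Monocyte genes were higher in 14 of 17 and lower in 1, Nr4a1, which neurons also transcribe and which is described with the activity-regulated genes. Plac8 (3.64), Chil3 (3.06) and Ly6c2 (1.98), genes of inflammatory monocytes, and Treml4 (4.50) and Ear2 (3.62), genes of patrolling monocytes, were among those higher. In the bulb-poor libraries alone 7 members were called. Summed over the list, levels overlapped between groups (233 to 450.1 CPM in controls and 351 to 536 CPM after LPS). Nr4a1 is a large part of that sum, at 310, 143, 143 and 218 CPM in controls and 64.1 to 92.2 CPM after LPS. The overlap of the sums therefore does not describe the other monocyte genes.

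Among lymphocyte genes those of cytotoxic and natural killer cells were called and those of the T-cell receptor complex were not. Gzma, a granule protease, stood at 0.258, 0.0926, 0.147 and 0.125 CPM in controls and 2.58, 3.10, 4.85, 4.03 and 3.91 CPM after LPS. The groups did not overlap (4.48, SE 0.37). Prf1, encoding perforin, rose by 4.07, SE 0.53, Nkg7 by 3.24 and the receptor gene Klrb1c by 2.94. Trac (0.0037), Trbc2 (-0.21) and Lck (0.19) were not called, and Cd3e, Cd3d and Cd3g were below the filter. B-cell genes called higher were Ms4a1 (2.08), Cd79b (1.56) and Ighm (1.09, SE 0.25). In all 14 of 20 lymphocyte genes were higher, and 6 were called in bulb-poor and 6 in bulb-rich libraries alone. Red-cell transcripts went the other way. Hbb-bs, an adult beta-globin gene, stood at 153, 133, 116 and 137 CPM in controls and 0.751, 37.6, 14.4, 90.2 and 21.6 CPM after LPS, all lower though not called (-2.04, SE 0.68, adjusted p = 0.0687). The erythroid list summed to 588 to 652 CPM in controls and 271 to 507 CPM after LPS, and the part of residual blood in the leukocyte values was not tested. Globin genes have near-identical copies, and of the others Hba-a2 was called (-1.95, SE 0.51).

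Macrophages of the brain borders gave 4 higher and 1 lower call among 15 genes, where 8.47% and 2.44% of all genes tested were called. Ms4a7 (1.82, SE 0.32) and Stab1 (1.65) rose, and Mrc1 (0.73), Cd163 (1.07) and Pf4 (0.27) were not called. Lyve1, a hyaluronan receptor of perivascular macrophages and of lymphatic vessels, stood at 2.69, 3.43, 0.933 and 1.79 CPM in controls and 0.798, 1.42, 0.945, 1.41 and 0.428 CPM after LPS. It fell by 1.14 (SE 0.33, adjusted p = 0.0312), its groups overlapped, and the call was lost without LPS replicate 1 (0.0808), LPS replicate 3 (0.0695), LPS replicate 5 (0.0587), control replicate 1 (0.0734) and control replicate 2 (0.104). In bulb-poor libraries alone 1 member of this list was called.

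Endothelial genes rose nearly as a whole, 28 of 30, although by less than leukocyte genes (median 0.97). Sox18, a transcription factor gene of endothelium, stood at 7.49, 10.1, 6.97 and 7.09 CPM in controls and 30.3, 38.3, 27.9, 21.5 and 21.0 CPM after LPS, without overlap, and rose by 1.81 (SE 0.18, adjusted p = 5.32e-07). Bsg, encoding basigin, a partner of lactate transporters at the barrier, stood at 499, 504, 470.3 and 509.7 CPM and 679, 724, 660.3, 700.5 and 669.8 CPM. Its change was small, 0.47, SE 0.060, and yet larger than the spread between replicates. The genes of the list not called were Plvap, which marks fenestrated vessels (-0.059), and Mfsd2a, the lipid transporter of the barrier (0.34). In bulb-poor libraries alone 17 members were called. Of 25 genes of adhesion and clotting 18 were higher and 1 lower. Selp, encoding P-selectin, on which leukocytes roll, had 2 reads in the 4 controls together and 84 in the 5 LPS libraries, a ratio of CPM of 36.4 (95% exact counting interval 9.76 to 305). Icam1 rose by 1.95, SE 0.25 and Procr, encoding the endothelial protein C receptor, by 1.79, whereas Vcam1 (0.39) and Thbd, encoding thrombomodulin (0.29), were not called. In this list 9 members were called in bulb-poor libraries alone.

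Genes of the vascular basement membrane were called and those of fibrillar collagens were not. Of 32 matrix genes 9 were higher and none lower, where 8.47% of all genes tested were called higher. Col4a1 stood at 47.5, 47.9, 28.7 and 35.2 CPM in controls and 103, 152, 113, 90.2 and 94.2 CPM after LPS, without overlap, and rose by 1.47 (SE 0.18, adjusted p = 8.14e-06), with Col4a2 at 1.20, SE 0.15. Hspg2, encoding perlecan, rose by 1.21, SE 0.24, and the laminin genes Lama4 and Lamc1 by 0.89 and 0.70. In bulb-rich libraries alone 4 members were called. The glycoprotein genes Fn1 (1.66) and Sparc (0.98) also rose. Fibrillar collagens of fibroblasts gave no call, with Col1a1 at 0.17, SE 0.36, Col1a2 at 0.26 and Col3a1 at 0.42. Meningeal genes, a possible admixture of dissected cortex, summed to 159 to 1385 CPM in controls and 151 to 1533 CPM after LPS. None of the 12 was called, where 10.9% of all genes tested were. Pericyte genes gave 4 calls of 15, all higher, Abcc9 (1.18), Notch3 (1.01), Kcnj8 (0.95) and Rgs5 (0.73), and 7 without control replicate 2. Acta2, the actin of arterial smooth muscle, was not called (0.48, SE 0.40).

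Lists of glia other than microglia gave unlike counts of calls. Of 32 genes of reactive astrocytes 18 were higher and 1 lower. Of 16 genes that define astrocytes none was called, where 10.9% of all genes tested were, and this count was not tested against that share. The intermediate filament gene Vim, which astrocytes share with vessels, stood at 103, 82.7, 49.0 and 80.9 CPM in controls and 196, 313, 221, 226 and 161 CPM after LPS, without overlap, and rose by 1.5 (SE 0.20, adjusted p = 1.99e-05). Aqp4 (-0.12), Gja1 (-0.19) and Slc1a3 (0.019) were not called. The count of called identity genes rose to 1 without control replicate 1 or LPS replicate 5 and to 3 without control replicate 2. None of 20 myelin genes was called by edgeR, against the same 10.9%, with Mbp at 0.20, SE 0.32. Of 12 genes of oligodendrocyte precursors 1 was called, where 10.9% of all genes tested were. This was Gpr17, a receptor of cells committed to differentiate. It stood at 56.2, 78.1, 58.4 and 52.9 CPM in controls and 155, 95.8, 164, 94.8 and 128 CPM after LPS, without overlap, and rose by 1.05 (SE 0.17, adjusted p = 0.000187). The count was 2 without control replicate 2 or LPS replicate 5, 3 without LPS replicate 4 and 0 in bulb-rich libraries alone.

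Few genes of cell division were called. Mki67, a marker of cycling cells, stood at 0.849, 2.41, 2.70 and 1.92 CPM in controls and 4.70, 3.23, 2.96, 2.57 and 2.46 CPM after LPS, and was not called (0.71, SE 0.34, adjusted p = 0.216). Top2a (0.74, SE 0.41) and Cdk1 (0.77) were not called. Of 33 genes 2 were called, where 10.9% of all genes tested were. They were Mcm3, a subunit of the replicative helicase, higher (0.97, SE 0.18), and Ccne2, lower (-0.45, SE 0.14). The call of Ccne2 was lost without LPS replicate 1 (0.095), LPS replicate 2 (0.102), LPS replicate 3 (0.078), LPS replicate 4 (0.0502), control replicate 1 (0.0687), control replicate 4 (0.112) and control replicate 5 (0.151).

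**Figure D3:**
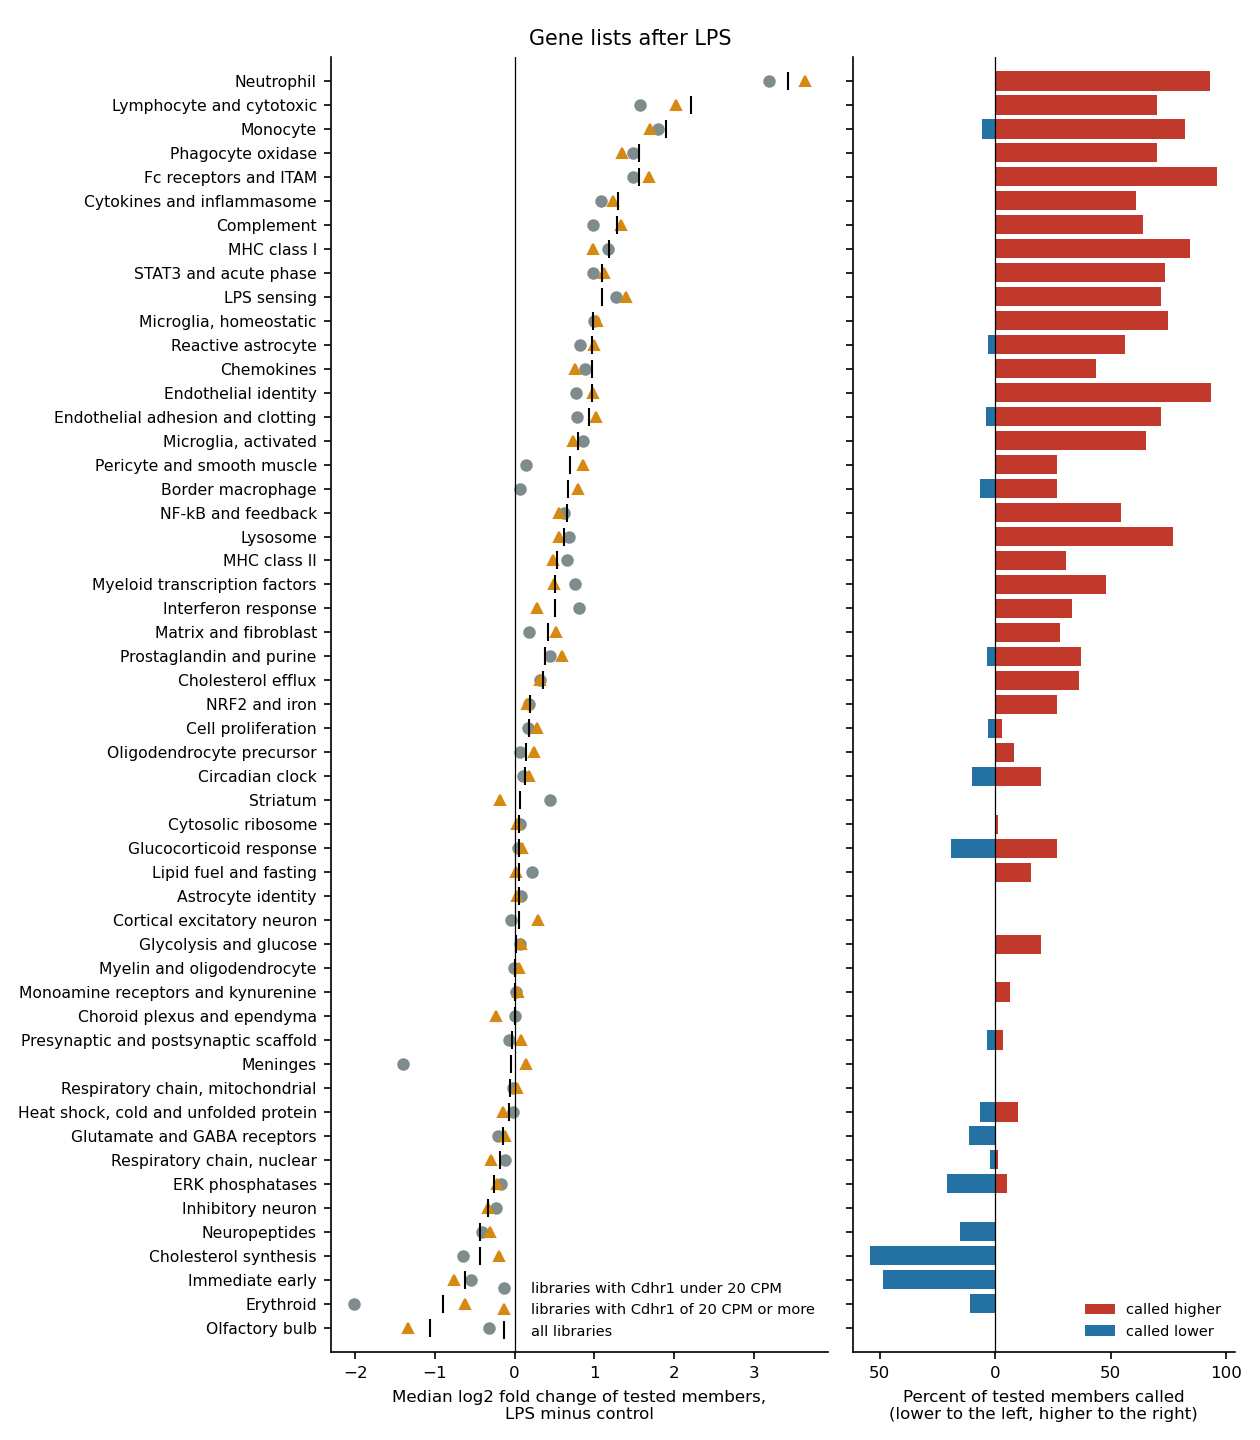
Left, median log2 fold change (LPS minus control) of the tested members of each gene list in all libraries (bar), in bulb-poor libraries (circle) and in bulb-rich libraries (triangle); right, percent of tested members called higher (red) or lower (blue), where 8.47% and 2.44% of all genes tested were. Leukocyte and phagocyte lists stand at the top, with immediate early and cholesterol synthesis genes near the bottom, and the strata lie farthest apart for the meningeal, erythroid and bulb lists.

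Among genes of lipid mediators, those of leukotriene synthesis rose and that of the inducible cyclooxygenase was not called. Prostaglandin E2 made by vessels and glia drives fever, and Ptgs2, encoding its inducible enzyme, stood at 10.7, 20.9, 20.9 and 18.2 CPM in controls and 22.8, 15.7, 16.9, 19.5 and 18.0 CPM after LPS. These overlapped (0.076, SE 0.20, adjusted p = 0.862). The constitutive Ptgs1, which microglia transcribe, stood at 11.1, 17.9, 15 and 14.8 CPM in controls and 30.6, 22.7, 25.7, 20.5 and 26.2 CPM after LPS, without overlap, and rose by 0.77, SE 0.13. Alox5ap, which presents arachidonate to 5-lipoxygenase, rose by 1.43, SE 0.16, Ltc4s, the leukotriene C4 synthase gene, by 1.48, and Hpgds, a prostaglandin D synthase gene of macrophages, by 0.91. Of the purinergic genes Adora3 (1.66, SE 0.27), P2rx7 (0.88), P2rx4 (0.76) and Entpd1, encoding the ATP-hydrolysing CD39 (0.98), rose. In all 10 of 27 were higher and 1 lower, Ptges3 (-0.44, SE 0.11), whose call was lost without control replicate 5 (0.052).

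Monoamine and kynurenine genes, which link inflammation to mood in much of the literature, gave 2 calls among 32. Of all genes tested 10.9% were called. Among the 2 was Maoa, which degrades monoamines (0.34, SE 0.088), a call lost without control replicate 1 (0.0591). Ido1, the first enzyme from tryptophan to kynurenine, was below the filter at 0.0369 to 0.250 CPM in controls and 0.0535 to 0.282 CPM after LPS, and Kmo, which turns kynurenine towards quinolinate, at 0.294 to 0.463 CPM and 0.282 to 0.645 CPM. None of the 12 serotonin receptor genes tested was called.

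The list with the most genes called lower was that of genes induced within minutes of stimulation in neurons and other cells. Of 39 immediate early genes 19 were lower and none higher, against 2.44% of all genes called lower. Fos, a subunit of AP-1, stood at 134, 74.9, 85.8 and 114 CPM in controls and 30.0, 26.1, 26.7, 54.0 and 23.2 CPM after LPS, with LPS replicate 4 the highest of its group and still below every control. Egr2, a zinc-finger transcription factor gene, stood at 28.4, 28.4, 24.1 and 30.0 CPM and 8.83, 10.6, 8.18, 12.6 and 9.96 CPM, tight within both groups. Arc, whose product removes glutamate receptors from synapses, stood at 315, 344, 244 and 303 CPM and 165, 99.5, 110.2, 175 and 104 CPM. None of these overlapped, and they fell by 1.68 (SE 0.20, adjusted p = 8.99e-06), 1.47 (SE 0.12, adjusted p = 5.93e-08) and 1.21 (SE 0.17, adjusted p = 5.57e-05). Others that fell were Nr4a1 (-1.43, SE 0.18), Junb (-0.98, SE 0.14), Btg2 (-0.91), Tiparp (-0.98) and Ccn1, a matricellular gene (-1.54, SE 0.27). Late-response genes of activity were not called: Bdnf (-0.11, SE 0.28), Homer1 (0.35), Nptx2 (0.11) and Vgf (0.16). Npas4, an activity-regulated factor of neurons alone, was not called (-1.12, SE 0.39, adjusted p = 0.08).

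Dusp1, encoding the phosphatase that ends p38 and JNK signalling, stood at 68.8, 66.9, 69.9 and 71.3 CPM in controls and 28.0, 20.9, 22.5, 38.7 and 19.5 CPM after LPS. The groups did not overlap and it fell by 1.42 (SE 0.15, adjusted p = 2.43e-06). Of 19 ERK phosphatases and feedback inhibitors 4 were lower and 1 higher, where 2.44% and 8.47% of all genes tested were. The count in both directions was 1 without control replicate 5 and 3 without LPS replicate 1. Dusp4 (0.24), Dusp6 (-0.28) and Spry2 (-0.0019) were not called. Promoters of Fos (chr12:85473640-85473889, plus strand) and Dusp1 (chr17:26508473-26508722, minus strand) are printed as those of the most changed members of the immediate early and phosphatase lists. The 250 bases before the start are RefSeq's, build GRCm38.p6, and capitals mark TGACG on either strand, part of the palindrome bound by CREB, which transmits cyclic AMP and calcium signals.
Fos: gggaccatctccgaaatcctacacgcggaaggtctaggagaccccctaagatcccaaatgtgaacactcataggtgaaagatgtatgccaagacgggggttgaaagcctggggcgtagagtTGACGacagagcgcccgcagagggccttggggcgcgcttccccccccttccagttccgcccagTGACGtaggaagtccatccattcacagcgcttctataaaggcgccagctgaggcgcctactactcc
Dusp1: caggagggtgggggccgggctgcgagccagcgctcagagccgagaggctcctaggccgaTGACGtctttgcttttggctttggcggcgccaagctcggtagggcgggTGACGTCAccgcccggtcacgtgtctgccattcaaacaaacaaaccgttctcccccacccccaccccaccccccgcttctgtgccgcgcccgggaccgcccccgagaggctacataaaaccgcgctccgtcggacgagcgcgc
Fos has a match that begins 129 bases before the start and another 66 bases before it. Dusp1 has one 191 bases before it and, 143 bases before it, the full palindrome TGACGTCA, in which the match of the plus strand overlaps that of the minus strand at 140. Both promoters were chosen with the matches known. TGACG was found in 17.8% of all 32851 promoters of that length, in 24.4% of those of genes tested, in 31.4% of those of genes called lower and in 15.2% of those of genes called higher. The full TGACGTCA was found in 1.55% of all, in 2.33% of those of genes tested, in 5.93% (23 of 388) of those of genes called lower and in 0.605% (9 of 1488) of those called higher. These shares describe letters in the window, and some genes have more than 1 promoter.

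Genes that define neurons were mostly not called. Of 20 genes of excitatory neurons and 20 of inhibitory neurons none was called by edgeR, where 10.9% of all genes tested were. The lists are short, and their counts were not tested against that share. Excitatory calls reached 5 without control replicate 2 and 1 without LPS replicate 4, and inhibitory calls 2 without control replicate 1 and 1 without LPS replicates 4 or 5. With the bulb markers as a covariate 5 of the inhibitory genes were called lower, and 1 of the excitatory genes higher and 1 lower. In bulb-poor libraries alone 3 inhibitory genes were called. Of 26 neuropeptide genes 4 were lower and none higher, where 2.44% of all genes tested were called lower. Cort, encoding cortistatin, a relative of somatostatin in cortical interneurons, stood at 7.60, 13.9, 16.1 and 11.3 CPM in controls and 6.10, 4.6, 5.34, 5.59 and 6.80 CPM after LPS, without overlap, and fell by 1.10 (SE 0.18, adjusted p = 0.000175). Crhbp, whose product binds and buffers corticotropin-releasing hormone, fell by 0.58 (SE 0.095, adjusted p = 0.00023) and Pnoc, encoding nociceptin, by 0.49 (SE 0.12, adjusted p = 0.00868), both without overlap. Cartpt fell by 1.25, a call lost without control replicate 5 (0.0648). Somatostatin itself, Sst, ranged from 50.2 to 282 CPM in controls and from 80.6 to 172 CPM after LPS and was not called (-0.57, SE 0.32). Its lowest level, in control replicate 1, was that of the library with the most Cdhr1. Of 35 glutamate and GABA receptor genes 4 were called lower, where 2.44% of all genes tested were. None of these calls held in every fit: the list had 0 calls without control replicates 4 or 5 or LPS replicate 2. It had 1 without LPS replicates 1 or 3, 2 without control replicate 1 and 6 without control replicate 2 or LPS replicate 4.

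Clock genes were called in both directions. Dbp, a transcription factor driven directly by the CLOCK and BMAL1 dimer, stood at 47.2, 40.0, 32.2 and 36.7 CPM in controls and 95.4, 85.7, 89.2, 81.1 and 64.0 CPM after LPS, without overlap, and rose by 1.09 (SE 0.15, adjusted p = 3.87e-05). Per2 (0.64, SE 0.10) and Per3 (0.40, SE 0.084) rose, while Per1 (-0.50, SE 0.12) and Arntl, which encodes BMAL1 (-0.45, SE 0.091), fell. Clock (-0.14), Cry1 (0.13) and Nr1d1 (0.24) were not called. The time of day of collection is not given in the sources used here, so its part in these values was not tested. Per1, Dusp1 and Ddit4 are also targets of the glucocorticoid receptor, and in that list of 26 genes 7 were higher and 5 lower. Fkbp5, the co-chaperone that dampens the receptor, stood at 32.2, 25.4, 24.6 and 27.4 CPM in controls and 69.2, 66.7, 52.8, 51.1 and 42.5 CPM after LPS, without overlap. Ddit4, an inhibitor of mTOR, stood at 86.4, 78.1, 72.9 and 72.7 CPM and 44.5, 50.3, 42.9, 44.2 and 42.7 CPM, also without overlap, but lower. They changed by 1.04 (SE 0.13, adjusted p = 1.73e-05) and -0.79 (SE 0.11, adjusted p = 4.73e-05).

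Genes of cholesterol synthesis were lower and some of its export higher. Of 24 genes of cholesterol synthesis and uptake 13 were lower and none higher. Idi1, an isomerase of the mevalonate pathway, stood at 18.7, 29.8, 34.0 and 21.4 CPM in controls and 10.1, 11.7, 11.8, 14.3 and 14.9 CPM after LPS, without overlap, and fell by 1.05 (SE 0.16, adjusted p = 8.67e-05). Insig1, the sterol sensor that is itself a target of the pathway's regulator, fell by 0.87 (SE 0.10, adjusted p = 7.36e-06). Cyp51 (-0.67, SE 0.12) and Msmo1 (-0.86, SE 0.19) fell, while Srebf2, which encodes the regulator SREBP2, was not called (0.027, SE 0.094). There were 5 calls without control replicate 4 and 3 in bulb-rich libraries alone, where Idi1 changed by -0.69 against -1.37 in bulb-poor libraries. In the efflux list 4 of 11 genes were higher, where 8.47% of all genes tested were. The count was 2 without control replicate 5 and 1 without control replicate 4. Mylip, which marks the low-density lipoprotein receptor for degradation, rose by 0.67, SE 0.12. Abca1, the cholesterol exporter, rose by 0.73 (SE 0.19, adjusted p = 0.0174) with overlap and was lost without control replicate 4 (0.0603). Of the fuel genes Ucp2, a mitochondrial carrier abundant in myeloid cells, rose by 1.19, SE 0.20, and Plin4, a lipid-droplet coat gene, by 1.56, SE 0.34. The enzymes of fatty acid oxidation were not called except Cpt1a (0.37, SE 0.11), lost without LPS replicate 1 (0.106), LPS replicate 2 (0.0994), control replicate 4 (0.115) and control replicate 5 (0.143).

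Ribosomal and respiratory chain genes gave few calls, where 10.9% of all genes tested were called. Of 79 ribosomal protein genes 1 was called, higher, Rplp0 (0.45, SE 0.090). None of 13 mitochondrially encoded and 3 of 94 nuclear genes of the respiratory chain were called (1 without control replicate 5). Their medians were -0.053 and -0.18. Of 30 glycolytic genes 6 were higher, where 8.47% of all genes tested were. Among the 6 were the lactate transporter genes Slc16a1 (1.19) and Slc16a3 (0.84). Of 30 genes of iron handling and the oxidative stress factor NRF2 8 were higher, against the same 8.47%. The count was 5 without control replicates 1 or 5 or LPS replicate 3. They included Hmox1, which degrades heme (1.23, SE 0.17), and Slc40a1, the iron exporter gene (0.88). The heat shock and unfolded protein list gave 3 higher and 2 lower calls of 31, where 8.47% and 2.44% of all genes tested were called. It gave 2 in all without control replicates 4 or 5 or LPS replicates 1 or 2. Rbm3, a cold-induced RNA-binding protein gene, rose by 0.61, SE 0.15.

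Bulb content was then taken into account in several ways. All 1504 higher and 434 lower calls were also calls when the mean log2 level of Cdhr1, Eomes, Doc2g and Shisa3 entered the model, which called 2033 genes higher (11.4%) and 812 lower (4.57%), 16% in all. In a fit of the 9 libraries with a mean for each group and stratum, 1488 of 1489 genes called higher and tested there were higher in both strata, and 429 of 429 genes called lower were lower in both. The libraries that set these directions are the same that gave the calls, so the counts are a description. Within that fit 347 genes were higher (2.03%) and 16 lower (0.0935%) among bulb-poor libraries, 2.12% in all. Among bulb-rich ones 606 were higher (3.54%) and 46 lower (0.269%), 3.81% in all. The LPS change was then compared between strata, and edgeR called none of 17121 genes (0%). At an unadjusted p under 0.05 there were 360 genes (2.1%), and limma-voom called 0, with 511 under that value. The smallest adjusted p was 0.999877, and each stratum has only 2 controls. Saa3 changed by 11.59 in bulb-poor and 11.38 in bulb-rich libraries, Cybb by 3.34 and 2.83, Ctsd by 1.12 and 0.93, Fos by -1.61 and -1.82, and Egr2 by -1.5 and -1.5. Fitted alone, the 4 bulb-poor libraries and their counterparts in the other groups gave 848 calls, 722 of them higher, and the bulb-rich ones 761, 685 of them higher.

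**Figure D4:**
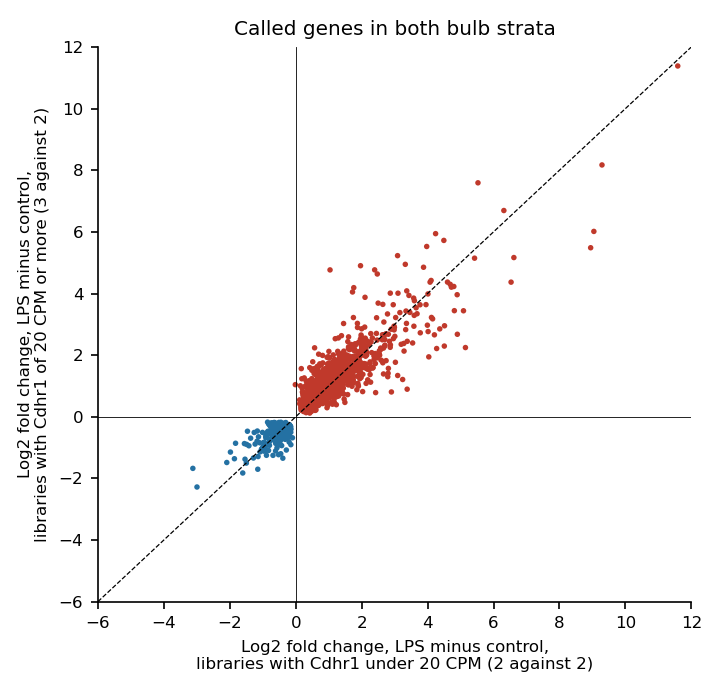
Log2 fold change (LPS minus control) of the genes called in the whole comparison, in bulb-poor libraries (2 against 2, horizontal axis) and in bulb-rich libraries (3 against 2, vertical axis), red for genes called higher and blue for genes called lower; the dashed line marks equal change. Of 1489 and 429 genes tested in both strata, 1488 and 429 have the same direction in both.

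LPS was also given to mice that received sedanolide, and these 10 libraries share none with the comparison above. There LPS with sedanolide was compared with sedanolide alone (n = 5 each), where 904 genes were called higher (5.09%) and 86 lower (0.484%), 5.58% in all. Of the 1504 genes called higher without sedanolide, 680 were called higher in these libraries (45.2% of the 1504, 75.2% of the 904), and 1288 (85.6%) had a positive change, against 46.1% of all genes. Of the 434 called lower, 12 were called lower there (2.76% of the 434, 14.0% of the 86), and 270 (62.2%) had a negative change, against 53.9% of all genes. None of the 5 libraries given both was bulb-rich, while 2 with sedanolide alone were. In bulb-poor libraries of that arm, 645 of the 823 genes called higher and 5 of the 48 called lower were shared.

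By list, phagocyte genes were called in both arms. With sedanolide 23 Fc receptor and ITAM genes, 7 oxidase genes, 19 lysosomal and 14 class I genes were higher. Saa3 changed there by 12.52, SE 0.37, Cybb by 2.46, SE 0.28, and Ctsd by 1.07, SE 0.078. Endothelial identity genes gave 12 higher calls there and adhesion genes 6. Immediate early genes gave none lower and 2 higher, Egr2 (0.43, SE 0.11, adjusted p = 0.021) and Junb (0.53, SE 0.13, adjusted p = 0.0164). Cytosolic ribosomal genes gave 44 higher calls there and 1 without sedanolide, but for 0 of the 79 was the difference between these changes called.

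The difference between the LPS changes with and without sedanolide was tested directly, and 104 genes differed (0.586%), 38 with a positive difference (0.214%) and 66 with a negative one (0.372%). Of these, 98 were called in the comparison without sedanolide, 64 higher and 34 lower, and for each of the 98 the change was smaller or opposite with sedanolide. Since the same LPS and control libraries enter both the calls and the difference, this direction is not independent of them. The count ranged from 33 without control replicate 5 to 242 without control replicate 2, and was 20 in bulb-poor libraries. Egr2 had the smallest p (difference 1.90, SE 0.16, adjusted p = 5.48e-06). Dusp1 differed by 1.75, Fos by 2.12, Arc by 1.70 and Junb by 1.51. Xdh, encoding xanthine oxidoreductase, which makes urate, stood at 5.02, 5.14, 2.99 and 3.63 CPM in controls and 13.2, 12.6, 10.4, 9.72 and 8.57 CPM after LPS, without overlap. It rose by 1.37, SE 0.16 without sedanolide and changed by -0.54, SE 0.15 with it (difference -1.91, SE 0.22, adjusted p = 0.000235). Sox18 differed by -1.47, Fkbp5 by -1.16 and Slc2a1, the glucose transporter gene of the barrier, by -0.94. Among phagocyte genes the difference was not called for Fcgr3 (-0.25), Cybb (-0.61) or Ctsd (0.054, SE 0.11, adjusted p = 0.862).

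**Figure D5:**
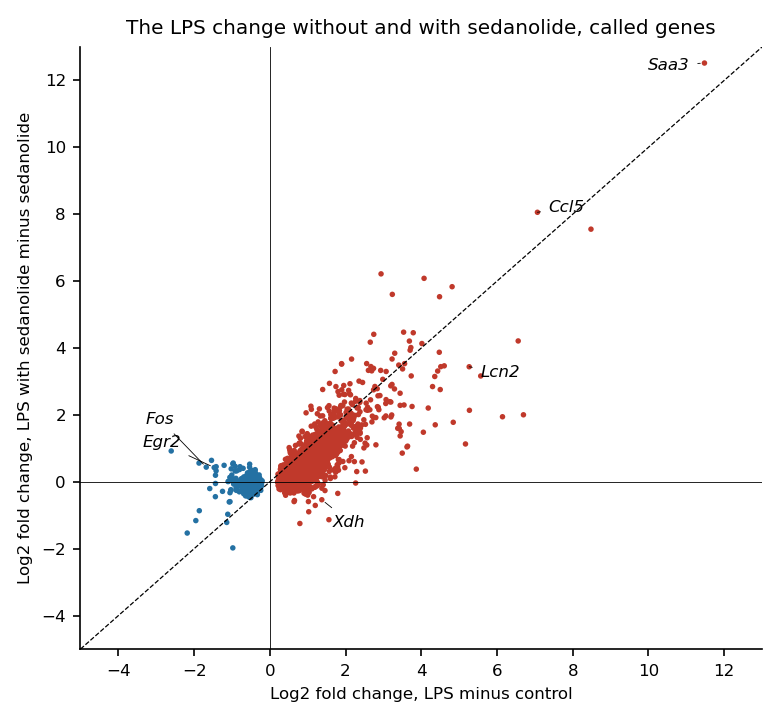
Log2 fold change after LPS without sedanolide (LPS minus control, horizontal axis) and with it (LPS with sedanolide minus sedanolide, vertical axis) for genes called without sedanolide, red for called higher and blue for called lower; the dashed line marks equal change. Of 1504 red points 1288 lie above 0 on the vertical axis, and the blue points gather around 0, with 270 of 434 below it.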

How the data were processed

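The deposited table holds gene read counts of 57010 genes in 19 libraries, made by the authors; per the labels, poly(A) libraries came from TRIzol-extracted RNA. The submitters' processing notes name fastp, HISAT2, StringTie, RSEM and DESeq2; genome build and counting settings are not given in the sources used here. Counts were fitted in edgeR 4.0.16 (R 4.3.3) by quasi-likelihood with TMM factors and 1 mean per group over all 19 libraries, after an expression filter by group, with Benjamini-Hochberg adjusted p below 0.05. Fold changes are log2, LPS minus control, adjusted p is edgeR's unless said otherwise, and ± is SD. SE is not a fitted standard error: it is the absolute log2 change divided by the square root of edgeR's F statistic. For genes with few reads in 1 group it can understate the uncertainty. For Saa3 it was 0.37 in each arm and 1.22 for the difference between arms. The pipeline was tested on simulated data. Depth limits the precision of genes with few reads, as in the intervals given for them, which cover counting error only. Replicate pairs differed by more than sampling noise, so none was merged.

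The members and gene lists were chosen with earlier results of these data known. A rule picked the 15 called genes of largest change and the 10 of highest level in each direction. It also took up to 4 called members of smallest p per list and direction, and the most abundant member. A panel and up to 8 genes of smallest p for each difference completed it. Not all genes it picked are named in the text. Further genes were named after their values were seen. Alternatives covered library factors, filters, DESeq2 1.42.0, limma-voom 3.58.1, bulb covariates, length and GC offsets, a replicate block and left-out libraries.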

Additional observations from a re-analysis of the deposited data

Results flagged for a closer look

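A single library stood apart from its group in a few values: its gap to the nearest library took more of the group's range than chance gives in about 1 group in 20. This held in 5 of 88 groups looked at (5.68%), close to that rate. Ddit4 was at 50.3 CPM in LPS replicate 2, still below every control, and Fos at 54.0 CPM in LPS replicate 4, also below every control. Sox18 was at 10.1 CPM in control replicate 2, below every LPS library, and Marco at 0.0369 CPM in control replicate 1, which was its single control read. The neutrophil genes summed to 132 CPM in LPS replicate 2, against 94.5 to 102 CPM in the other LPS libraries.

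The change after LPS differed by the presence of sedanolide for 19 of the genes named, by edgeR's test of the difference. For the genes lower after LPS the difference (with minus without sedanolide) was positive: Egr2 1.90, Ccn1 2.18, Fos 2.12, Dusp1 1.75, Arc 1.70, Nr4a1 1.63, Junb 1.51, Btg2 1.38, Ddit4 1.24, Cort 1.11 and Insig1 0.69. For the genes higher after LPS it was negative: Plin4 -2.69, Xdh -1.91, Sox18 -1.47, Fkbp5 -1.16, Col4a2 -0.99, Slc2a1 -0.94, Il6ra -0.84 and Per2 -0.68. The LPS and control libraries enter both the change and the difference.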

How the results depend on the processing

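For LPS against control (1504 higher, 434 lower, 1938 in all), limma-voom with sample weights called 2941 and 1562 (4503), a minimum fold of 1.5 left 538 and 15 (553), the Cdhr1 covariate gave 2937 in all with 865 lower, and the 4-marker covariate 812 lower (653 with length and GC offsets, an alternative chosen after seeing the data). A fit of only the 9 libraries called 968 and 146 (1114), one with the bulb stratum as a factor 289 lower, bulb-poor libraries alone 848 (722 higher) and bulb-rich ones 685 and 76 (761), with fewer libraries in each. DESeq2 called 738 lower. Leaving out 1 library gave 1308 to 2478 calls in all, 1108 to 1816 higher and 200 to 662 lower. Beyond these settings and the replicate block the counts stayed within 1.5 times; the cause of the moves was not tested.

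LPS with sedanolide against sedanolide (990) moved with limma-voom, to 3513. The difference with and without sedanolide (104) was 463 with DESeq2, 3836 with limma-voom, 368 with the Cdhr1 covariate, 314 with the 4-marker covariate, 199 with that and length and GC offsets, 20 in bulb-poor libraries (both chosen after seeing the data) and 33 to 242 without 1 library. The stratum difference had 0 calls in every alternative.

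With the replicate number as a block, 1161 genes were higher and 180 lower, and 32 differed with sedanolide. Same-numbered control and LPS libraries did not deviate together (correlations -0.46, -0.43, -0.39 and -0.31). Each of these pairs held 1 bulb-rich and 1 bulb-poor library, so the correlations cannot tell whether the numbers pair the libraries.

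Of 176 called genes named in the text, 168 kept their call whichever library was left out. Of the 201 called genes that the rule picked, 156 did, and not all of these 201 are named in the text. Under alternatives, genes named in the text or picked by rule had 9373 values. Of these 616 lost and 132 gained a call, and none changed direction while called.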

Other observations

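Genes outside the lists above, picked after their values were seen, included scavenger and lectin receptors of macrophages. Marco, encoding a scavenger receptor of tissue macrophages that binds bacteria, had 1 read in the 4 controls together and 650 reads in the 5 LPS libraries, a ratio of CPM of 563 (95% exact counting interval 101 to 22271). Its levels after LPS were 3.47, 10.8, 8.01, 3.17 and 3.64 CPM, so all 5 libraries held it. Cd5l, a secreted protein gene of tissue macrophages, had 3 and 444 reads, a ratio of 128 (95% exact counting interval 43.6 to 624), and levels of 2.91, 7.23, 6.41, 1.01 and 2.03 CPM after LPS. Clec4e, encoding Mincle, a receptor of microbial glycolipids, had 2 and 111 reads, a ratio of 48.1 (95% exact counting interval 13 to 402). With sedanolide, LPS raised Marco by 7.55, SE 0.86, while Clec4e was not called (2.14, SE 0.89); the difference between arms was called for neither. Adgre1, which encodes the macrophage marker F4/80, stood at 7.71 to 12.5 CPM in controls and 56.6 to 75.0 CPM after LPS and rose by 2.74, SE 0.15.

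Receptors of the SLAM family, which leukocytes use to bind one another, also rose. Cd84 stood at 3.25, 7.13, 3.93 and 4.59 CPM in controls and 14.7, 11.1, 15.5, 12 and 18.6 CPM after LPS, without overlap, and rose by 1.61, SE 0.21. Cd48 rose by 2.02, SE 0.25, and Ly9 by 2.93, SE 0.37. Among neuronal genes outside the lists, Dcc, the netrin receptor of axon guidance, fell by 0.60 (from 18.1 to 21.0 CPM to 10.4 to 15 CPM), and Epha5, an ephrin receptor gene, by 0.60 with overlap (from 90.1 to 158 CPM to 61.7 to 103 CPM).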
